A study of Mus musculus with 28 samples.

Results

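The MCM2-7 genes (Mcm2, Mcm3, Mcm4, Mcm5, Mcm6 and Mcm7) encode the 6 subunits of the replicative helicase, the ring that unwinds DNA ahead of the polymerases. They were followed in RNA sequencing of mouse kidney cells and were taken by symbol, 6 of the 53392 genes in the files. All 6 were found in every library, with 20.0 to 587.1 reads each. The family was chosen by a measured value, the lower Mcm6 level in tubular cells of treated mice, so the members' values in treated against scrambled-miRNA tubular cells are given below as a description, with no test.

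Cells came from kidneys of male FVB mice in 5 states, namely injury treated with exosomes, injury treated with a miR-486-5p mimic, untreated acute kidney injury, injury treated with scrambled miRNA, and sham mice with no injury. Exosome, mimic and scrambled-miRNA mice thus all carried the same ischemic injury. Endothelial cells were captured with beads against CD31 and proximal tubular cells were dissected out, both after digestion of the kidney. The labels place 28 samples in 10 groups of 3 libraries, or 2 for the mimic. Counts per library were analysed for 16 libraries in 6 groups, all of them injured. Untreated and sham mice were reanalyses of samples of an earlier series, and were seen only through the authors' deposited tables of fold changes. The labels used here give neither the time after injury nor the source of the exosomes, and the library numbers are not said to mark the same mouse in both cell types.

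In G1 phase, the origin recognition complex with Cdc6 and Cdt1 loads MCM2-7 rings onto DNA, a step called licensing. At the start of S phase the kinases Cdc7-Dbf4 and Cdk2 turn the ring into a working helicase by adding Cdc45 and the GINS complex. The subunit genes are classic targets of E2F transcription factors, which are freed from the retinoblastoma protein as cells commit to replication. The adult kidney tubule divides rarely, and its cells are known to re-enter the cycle during repair after ischemia.

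The subunits are encoded on 5 chromosomes (GRCm38, GENCODE M21). Mcm3 and Mcm6 lie on chromosome 1, at 20802968 to 20820312 and 128331590 to 128359664. Mcm7 lies on chromosome 5 at 138164583 to 138172422, Mcm2 on chromosome 6 at 88883474 to 88898780, Mcm5 on chromosome 8 at 75109569 to 75128439 and Mcm4 on chromosome 16 at 15623897 to 15637400. Mcm5 is on the plus strand and the other 5 are on the minus strand. Mcm4 starts 466 bases from Prkdc, which encodes the catalytic subunit of a DNA repair kinase. Mcm7 overlaps Ap4m1 and Cops6 on the opposite strand, and whether counting used strand is not given in the sources used here, so reads of these 3 genes may be mixed in the overlap.

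Promoters were searched because the members moved together across libraries. The letters TTTCCCGC, TTTCGCGC, TTTGCCGC and TTTGGCGC, which are common forms of the E2F binding word, were looked for on both strands from 250 bases before to 50 bases after each start in RefSeq's GRCm38.p6 table. They stood in 744 of 32851 promoters, or 2.26%. Of the 5 members in that table, Mcm3, Mcm5, Mcm6 and Mcm7 held at least 1 word and Mcm2 held none. Mcm7 has 2 listed starts, and the other of them held none. The windows with a word are shown 5′ to 3′ on the gene's strand with the words in capitals. They are chr1:20820263-20820562 for Mcm3, chr8:75109259-75109558 for Mcm5, chr1:128359656-128359955 for Mcm6 and chr5:138171834-138172133 for Mcm7, and only Mcm5 is on the plus strand.
Mcm3: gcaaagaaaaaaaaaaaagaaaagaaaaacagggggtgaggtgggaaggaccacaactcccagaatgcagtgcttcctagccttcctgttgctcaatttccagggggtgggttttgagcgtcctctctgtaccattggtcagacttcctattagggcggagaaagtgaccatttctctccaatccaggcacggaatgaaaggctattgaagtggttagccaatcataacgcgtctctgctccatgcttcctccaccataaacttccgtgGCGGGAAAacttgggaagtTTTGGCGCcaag
Mcm5: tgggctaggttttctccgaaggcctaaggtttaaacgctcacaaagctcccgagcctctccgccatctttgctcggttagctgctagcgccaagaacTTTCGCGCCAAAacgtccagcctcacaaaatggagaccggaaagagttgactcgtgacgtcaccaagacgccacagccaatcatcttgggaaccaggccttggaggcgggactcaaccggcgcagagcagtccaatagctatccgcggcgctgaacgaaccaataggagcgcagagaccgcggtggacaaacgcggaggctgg
Mcm6: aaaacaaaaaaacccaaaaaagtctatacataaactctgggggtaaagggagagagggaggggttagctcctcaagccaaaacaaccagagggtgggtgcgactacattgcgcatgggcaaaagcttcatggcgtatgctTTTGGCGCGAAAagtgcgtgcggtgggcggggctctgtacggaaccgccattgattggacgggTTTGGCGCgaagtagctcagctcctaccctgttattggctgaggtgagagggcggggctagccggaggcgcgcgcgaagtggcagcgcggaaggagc
Mcm7: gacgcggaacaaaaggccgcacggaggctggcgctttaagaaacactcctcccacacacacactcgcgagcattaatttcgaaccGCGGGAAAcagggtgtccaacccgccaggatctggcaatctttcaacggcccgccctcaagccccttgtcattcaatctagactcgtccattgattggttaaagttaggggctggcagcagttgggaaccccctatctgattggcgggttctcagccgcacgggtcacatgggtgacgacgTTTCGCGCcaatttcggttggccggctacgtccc
In Mcm6, the words TTTGGCGC and GCGCGAAA overlapped and began 110 and 106 bases before the start, and TTTGGCGC occurred again 47 bases before it. Mcm5 had an overlapping pair too, TTTCGCGC and GCGCCAAA, beginning 153 and 149 bases before its start. In Mcm3 the words GCGGGAAA and TTTGGCGC began 19 and 38 bases after the start. Mcm7 had GCGGGAAA 165 bases before and TTTCGCGC 16 bases after the start of the window shown. The commoner words CCAAT and GGGCGG were in 37.4% and 35.7% of all promoters. A matching word is a description of the reference sequence and not evidence of binding.

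Levels were read as TPM, a measure of transcript abundance corrected for transcript length and sequencing depth, summed over protein-coding transcripts of at least 2000 bases, called full-length TPM here. Short fragments were left out since the 273-base Mcm2-203, listed as subject to nonsense-mediated decay, held 4.59% of Mcm2 reads in tubular libraries but 81.3% of its TPM, and 6.11% and 84.3% in endothelial libraries. Its effective length was 31.0 to 38.6 bases, so that few reads made a large TPM. The tests rest on reads of the whole gene, of which the full-length transcripts carried 68.9% or more for every member in every library.

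In tubular cells, all 6 members were lower with exosomes and with the mimic than with scrambled miRNA, and for none of them did a treated library reach a scrambled-miRNA library. The share of all genes that separated likewise was not counted, and these are the comparisons that led to the choice of genes. The 6 transcripts together had 8.67, 5.82 and 4.36 full-length TPM with exosomes and 8.75 and 5.92 TPM with the mimic, against 35.9, 17.1 and 25.2 TPM with scrambled miRNA. The scrambled-miRNA mean was 4.15 times the exosome mean and 3.56 times the mimic mean. In bulk RNA, fewer replicating cells and less RNA per cell cannot be told apart.

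Mcm6, the member that led to the choice, had 0.794, 0.647 and 0.336 full-length TPM with exosomes and 0.460 and 0.319 TPM with the mimic, against 5.01, 2.21 and 2.85 TPM with scrambled miRNA. Mcm3, which in yeast contacts the loader Cdc6, had 0.803, 0.455 and 0.257 TPM with exosomes and 0.648 and 0.459 TPM with the mimic, against 4.46, 1.86 and 3.03 TPM with scrambled miRNA. Mcm5, which forms with Mcm2 the gate through which DNA enters the ring, had 1.71, 1.02 and 0.762 TPM with exosomes and 1.60 and 1.14 TPM with the mimic, against 9.20, 3.31 and 6.14 TPM with scrambled miRNA. For each of these 3, the lowest scrambled-miRNA library stood above the highest treated one.

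Mcm2, the other gate subunit and a chaperone of parental histones, ranged from 0.848 to 1.64 full-length TPM with exosomes and from 0.888 to 1.86 TPM with the mimic, against 2.83 to 6.92 TPM with scrambled miRNA. Mcm4, a main target of the Cdc7 kinase, ranged from 0.457 to 0.969 TPM with exosomes and from 0.571 to 1.05 TPM with the mimic, against 2.27 to 3.42 TPM with scrambled miRNA. Mcm7, which forms with Mcm4 and Mcm6 the core that unwinds DNA in vitro, had 2.76, 2.21 and 1.65 TPM with exosomes and 3.12 and 2.54 TPM with the mimic, against 6.92, 4.65 and 5.72 TPM with scrambled miRNA. Mcm7 had the highest mean of the 6 in both treated tubular groups. With the mimic its 2 libraries lay above every value of the other 5, whereas with exosomes its lowest library lay under the highest of Mcm5 (1.71 TPM). In scrambled-miRNA tubular cells Mcm5 led with a mean of 6.22 TPM, but there every neighbour in the order of levels overlapped the next.

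**Figure D1:**
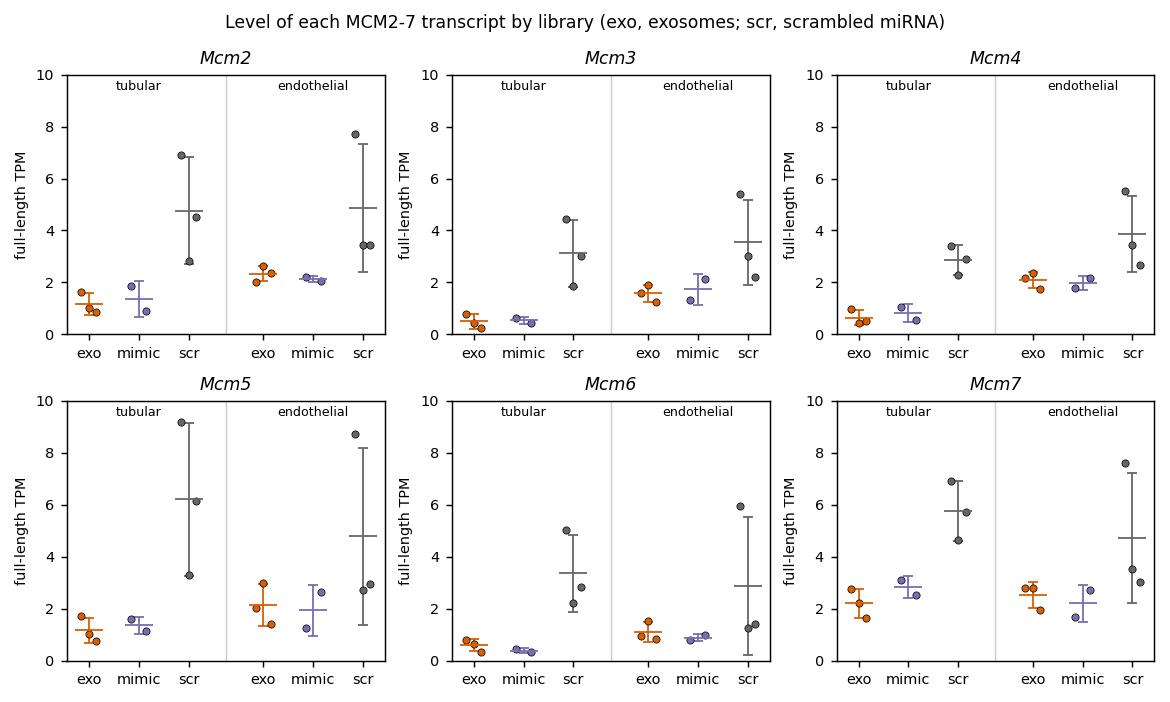
Full-length TPM of each member (vertical axis) in each library, by group along the horizontal axis. Points are libraries, horizontal bars are means and whiskers are SD (n = 3, or 2 for the mimic). In tubular cells the exosome and mimic points of every member lie under its scrambled-miRNA points, and in endothelial cells scrambled-miRNA library 1 stands above all others.

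In the edgeR fit, which uses counts over the whole library, Mcm7 differed from the rest in size. With exosomes its log2 fold over scrambled miRNA was -0.998 (SE 0.19), where the other 5 lay between -1.71 (Mcm2, SE 0.31) and -2.34 (Mcm3, SE 0.33). With the mimic it was -0.90 (SE 0.21), where the others lay between -1.70 (Mcm2, SE 0.35) and -2.98 (Mcm6, SE 0.31). The median of the 6 was -1.94 with exosomes and -1.92 with the mimic, beside -0.02 and -0.03 over all 14913 genes tested. These 2 comparisons share the scrambled-miRNA libraries and were the ones that chose the genes, so they are not separate lines of support. Of the opposite-strand neighbours of Mcm7, Ap4m1 had log2 folds of 0.14 with exosomes and 0.21 with the mimic, and Cops6 had 0.26 and -0.03. Prkdc, head to head with Mcm4, had -0.06 in both.

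**Figure D2:**
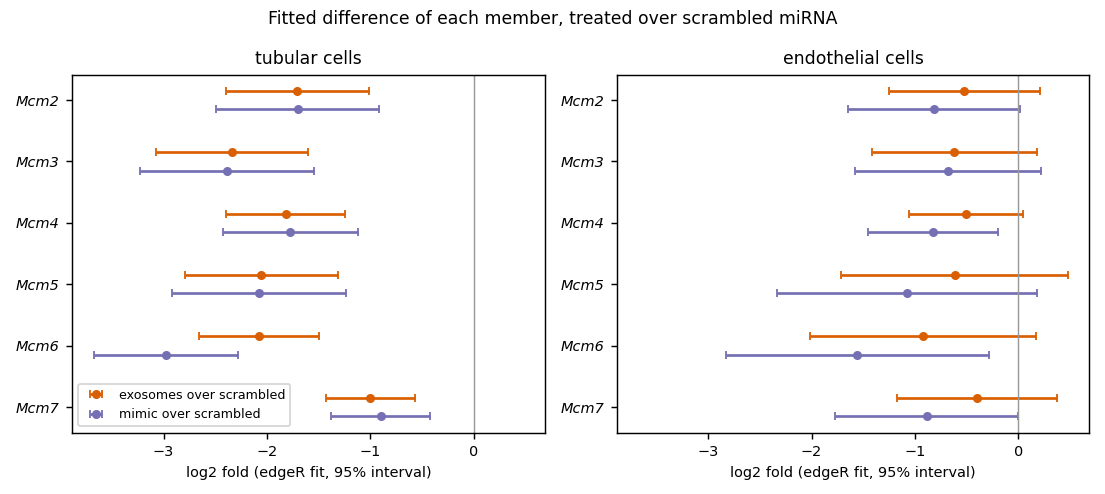
Log2 fold of each member with its 95% interval from the edgeR fit (horizontal axis), for exosomes and for the mimic over scrambled miRNA. All 12 tubular values lie between -2.98 and -0.90, and all 12 endothelial values between -1.56 and -0.40.

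The make-up of the 6 transcripts differed between these tubular groups as well, which is a description, since these libraries led to the choice of genes. A lower Mcm6 share is no separate result, because its lower level was the ground for the choice. Mcm7 made up 35.9% ± 3.54 of the summed full-length TPM with exosomes (SD, n = 3) and 39.3% ± 5.12 with the mimic (SD, n = 2), against 23.0% ± 3.95 with scrambled miRNA (SD, n = 3). The lowest treated library stood at 31.8% and the highest scrambled-miRNA library at 27.1%. Mcm6 made up 5.25% and 5.39% in the 2 mimic libraries and 7.71% to 11.1% with exosomes, against 11.3% to 14.0% with scrambled miRNA. Mcm2 made up 18.6% ± 0.96 with exosomes (SD, n = 3) and 18.2% ± 4.46 with the mimic (SD, n = 2), against 17.9% ± 1.36 with scrambled miRNA (SD, n = 3), and these groups overlapped. In endothelial cells Mcm7 made up 21.5% ± 2.38 with exosomes (SD, n = 3) and 20.0% ± 1.90 with the mimic (SD, n = 2), against 19.4% ± 0.82 with scrambled miRNA (SD, n = 3), and these groups overlapped.

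**Figure D3:**
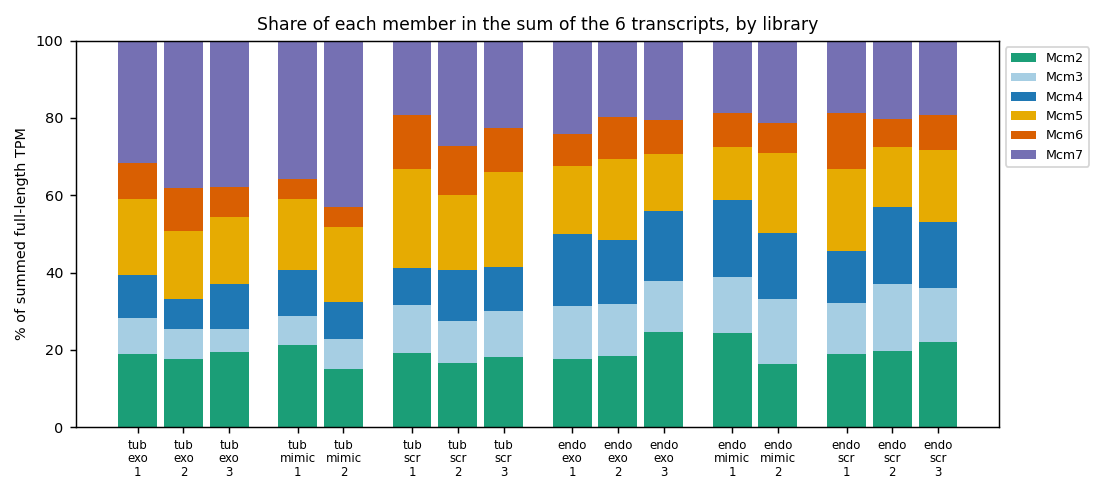
Share of each member in the summed full-length TPM of the 6 transcripts (vertical axis, percent) in each of 16 libraries, exosome and mimic groups left of scrambled miRNA in each cell type. The Mcm7 segment spans 31.8% or more in each treated tubular library and 27.1% or less in each scrambled-miRNA tubular library.

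The mimic and exosome groups of tubular cells were then compared with each other, a contrast the choice of genes did not use although it rests on the same treated libraries. No member was called by edgeR's quasi-likelihood test, and neither was any other of the 14913 genes (0.0%), while 1848 genes had an unadjusted p under 0.05. DESeq2 called 166 genes there and no member, but gave an adjusted p to 1 of the 6 only. In the edgeR fit Mcm6 had the largest difference of the 6, -0.90 on the log2 scale for the mimic over exosomes (SE 0.30, 95% interval -1.57 to -0.24, adjusted p = 0.324). Its low level in these same libraries led to the choice, so its values here are a description and its test no separate support. On log2 CPM, Mcm6 was the 1 member of 6 whose 2 mimic libraries (1.53 and 1.21) both lay under the 3 exosome libraries (2.44, 2.33 and 1.91), while on full-length TPM these groups overlapped. No share of all genes separated in this way was counted. For the other 5 members the log2 fold was between -0.05 and 0.10. Their widest intervals, those of Mcm3 and Mcm5, ran from -0.86 to 0.76 and from -0.83 to 0.79. These intervals are not adjusted for the 14913 genes tested. Differences even beyond those bounds could thus go uncalled at this depth and number of libraries.

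In endothelial cells every member had a lower mean with exosomes and with the mimic than with scrambled miRNA, and none passed the test. The 6 transcripts together had 11.6, 14.3 and 9.58 full-length TPM with exosomes and 9.08 and 12.7 TPM with the mimic, against 40.9, 17.4 and 15.7 TPM with scrambled miRNA. Scrambled-miRNA library 1 stands apart as the highest of all 16 libraries for this sum. All 6 log2 folds were negative, between -0.92 (Mcm6, SE 0.48) and -0.40 (Mcm7, SE 0.34) with exosomes and between -1.56 (Mcm6, SE 0.56) and -0.68 (Mcm3, SE 0.40) with the mimic. By edgeR's quasi-likelihood test 0 of 6 passed in either comparison, beside 0.0% of the 16316 genes. Unadjusted p-values under 0.05 were found for 1860 genes with exosomes and 3176 with the mimic, 3 members (Mcm4, Mcm6 and Mcm7) among the second. The largest adjusted p of those 3 was 0.256.

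The calls for the mimic depended on the procedure. With no filter on low counts, edgeR called 5 members lower with the mimic than with scrambled miRNA, Mcm3 being the exception, beside 3.7% of 29341 genes called lower. The edgeR values were -1.54 for Mcm6 (adjusted p = 0.000167), -1.06 for Mcm5 (adjusted p = 0.0061), -0.87 for Mcm7 (adjusted p = 0.0177), -0.80 for Mcm2 (adjusted p = 0.0371) and -0.81 for Mcm4 (adjusted p = 0.0454). DESeq2 called Mcm6 alone (-1.58, adjusted p = 0.0479), beside 3.7% of 16236 genes called lower. Without scrambled-miRNA library 1 the median of the 6 was -0.47 for the mimic, against -0.86 with it, and -0.19 for exosomes, against -0.57 with it, and Mcm7 with exosomes turned to 0.03.

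Mcm6 shows where this spread lies. Its level was 0.963, 1.54 and 0.837 full-length TPM with exosomes and 0.799 and 0.975 TPM with the mimic, against 5.96, 1.28 and 1.40 TPM with scrambled miRNA. With exosomes, library 2 lay above 2 of the 3 scrambled-miRNA libraries, so these groups overlapped. Mcm4 had 2.18, 2.36 and 1.75 TPM with exosomes and 1.80 and 2.18 TPM with the mimic, against 5.51, 3.45 and 2.68 TPM with scrambled miRNA, and its groups did not overlap. On this scale 6 of 6 members had both mimic libraries under every scrambled-miRNA library, and 4 of 6 had every exosome library under them. On log2 CPM scaled by TMM the same counts were 4 of 6 and 0 of 6. How many of all genes separated in this way was not counted, so these counts describe the members only. The mimic and exosome groups overlapped for all 6 on both scales, and none passed the test between them, where 661 genes had an unadjusted p under 0.05.

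Markers of injury and of other cells moved with the treated groups. All 5 tubule injury markers (Havcr1, Lcn2, Krt20, Sox9 and Vcam1) had negative log2 folds in all 4 comparisons with scrambled miRNA. Their summed TPM in tubular libraries was 3.20 to 6.10 with exosomes and 1.54 to 3.69 with the mimic, against 17.9 to 454.8 with scrambled miRNA. In endothelial libraries it was 17.2 to 165.0 with exosomes and 11.4 to 29.2 with the mimic, against 452.2 to 601.9 with scrambled miRNA. Krt20 was at 0 in all 3 tubular exosome libraries. Within the scrambled-miRNA tubular group the 2 measures did not share an order, since library 1 had the highest MCM2-7 sum (35.9 TPM) and the lowest injury sum (17.9), while library 3 had 25.2 TPM and 454.8.

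Both neutrophil markers that could be fitted, S100a8 and S100a9, were lower in all 4 comparisons, and the list of 3 summed to 0.759 to 1.37 TPM with exosomes and 0.028 to 1.56 TPM with the mimic, against 4.61 to 28.4 TPM with scrambled miRNA in tubular cells. Of 5 macrophage markers, 4 with exosomes and 3 with the mimic had negative log2 folds in tubular cells, and their sum was 6.12 to 13.9 TPM with exosomes and 4.70 to 7.78 TPM with the mimic, against 14.3 to 17.6 TPM with scrambled miRNA. The 5 lymphocyte markers summed to at most 0.658 TPM in any tubular library, and Cd3e, Cd3g and Cd79a were all at 0 in 6 of 8 of these libraries. In tubular cells the 3 podocyte markers (median log2 fold 0.54 with exosomes and -2.38 with the mimic, both over scrambled miRNA) summed to 1.16 to 24.4 TPM with exosomes and 1.30 to 4.39 TPM with the mimic, against 3.00 to 18.5 TPM with scrambled miRNA. In endothelial cells the 8 proximal tubule markers had a median log2 fold of 0.29 with exosomes and -1.69 with the mimic, and summed to 376.0 to 2722 TPM with exosomes and 365.4 to 408.8 TPM with the mimic, against 614.2 to 1683 TPM with scrambled miRNA. The 3 distal and collecting duct markers had median log2 folds of 1.11 with exosomes and 1.79 with the mimic in endothelial cells, and summed to 174.7 to 345.1 TPM with exosomes and 416.2 to 434.2 TPM with the mimic, against 108.5 to 156.8 TPM with scrambled miRNA. The 2 thick ascending limb markers had medians of 1.05 and 1.66 there, and summed to 5170 to 8445 TPM with exosomes and 10959 to 12235 TPM with the mimic, against 3551 to 7998 TPM with scrambled miRNA. The mimic libraries were also the deepest, with 14227797 to 25326882 reads, against 8273783 to 13576812 in the exosome and scrambled-miRNA libraries. The part of these markers and of depth in the members' differences was not tested.

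Injury itself was read from the authors' deposited tables. In tubular cells, the authors' deposited table of untreated injury over sham called 3 of the 6 members higher at an adjusted p under 0.05, Mcm2 (log2 fold 1.69, SE 0.56, adjusted p = 0.00287), Mcm5 (1.23, SE 0.45, adjusted p = 0.00803) and Mcm4 (1.14, SE 0.44, adjusted p = 0.0109). The authors' deposited table called 11.5% of its 16874 genes higher. The authors' deposited table put Mcm6 at 0.97 (SE 0.69, adjusted p = 0.0675), Mcm7 at 0.58 (SE 0.27, adjusted p = 0.0539) and Mcm3 at 0.36 (SE 0.43, adjusted p = 0.362), all short of the threshold. Over both directions 20.2% of its genes were called. The median of the 6 was 1.05, beside 0.01 over all genes of that table.

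In endothelial cells, the authors' deposited table of untreated injury over sham called Mcm5 (log2 fold 1.47, SE 0.56, adjusted p = 0.0153) and Mcm3 (1.22, SE 0.57, adjusted p = 0.0378) higher, 2 of 6 beside 3.3% of 19354 genes called higher and 4.41% called in either direction. In the authors' deposited table Mcm6 had a similar fold with a wide error (1.20, SE 1.02, adjusted p = 0.0888), and Mcm2, Mcm4 and Mcm7 lay between 0.19 and 0.33. Mcm5 was thus the member called in both cell types. Whether the members' response to injury differed between cell types was not tested, because the tables carry no replicate values. All 5 tubule injury markers were called higher in both of the authors' deposited tables, and so were both neutrophil markers that could be tested, the neutrophil pair with median log2 folds of 4.39 in tubular and 3.43 in endothelial cells. Their part in the members' difference was not tested.

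Treated injured mice were set against sham too, and no test compares these values with those of untreated injury. Sham mice belong to an earlier series, so treatment and series cannot be told apart in the treated-over-sham folds. In the authors' deposited table of tubular cells with exosomes over sham, the members' log2 folds lay between -0.24 (Mcm3, SE 0.36) and 0.27 (Mcm5, SE 0.34). With the mimic over sham, the authors' deposited table had -0.02 to 0.04, but folds there are strongly shrunken towards 0, since the median of absolute fold over its error was 0.136 where the p-values imply 0.730. Both tubular sets of values are given as a description because they hold the treated libraries that led to the choice of genes. In endothelial cells the authors' deposited tables called 0 of 6 with exosomes over sham (median 0.44, beside 6.73% of 18377 genes called) and 0 of 6 with the mimic over sham (median 0.32, beside 11.6% of 18864 genes called). Mcm3 with the mimic came nearest in the authors' deposited table (1.13, SE 0.58, adjusted p = 0.0567). The comparisons with sham share the sham libraries. Folds were shrunken to differing degrees in all of them. The median absolute fold over its error was 0.587 in tubular cells with exosomes, where the p-values imply 1.12. Untreated tubular cells had 0.894 and 1.39. In endothelial cells the pairs were 0.516 and 1.02 with exosomes, 0.655 and 1.09 with the mimic, and 0.434 and 0.949 untreated. Fold sizes therefore cannot be compared between these tables.

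**Figure D4:**
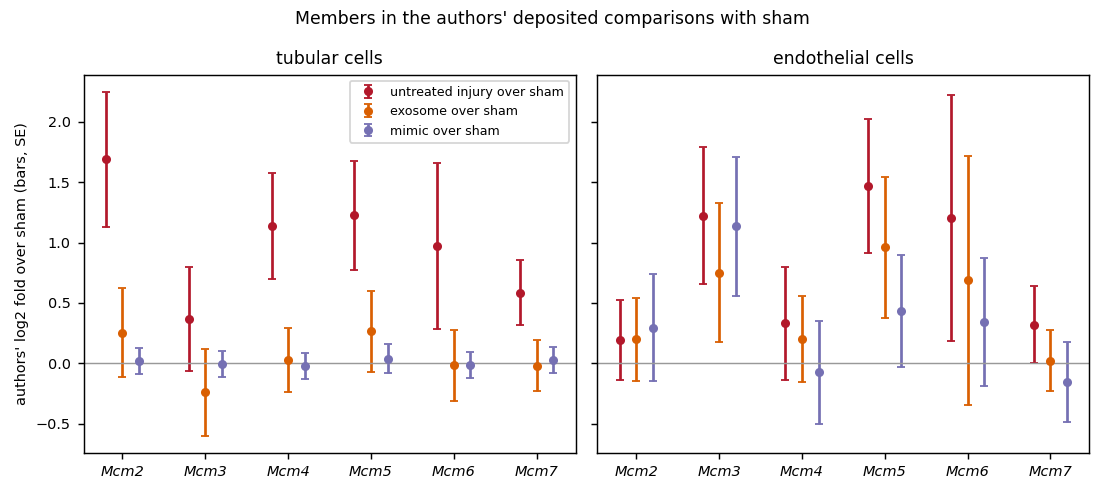
Log2 fold over sham in the authors' deposited tables (vertical axis, bars are the authors' SE) for each member, with untreated injury, exosomes and mimic side by side. In tubular cells the untreated values run from 0.36 to 1.69 and the exosome values from -0.24 to 0.27. Folds are shrunken towards 0 to differing degrees, so their sizes cannot be compared between sets. Sham mice belong to an earlier series than the treated mice.

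The tables against untreated injury are coded as untreated over treated, so that a positive value means a lower level in treated mice. In tubular cells the authors' deposited table had log2 folds of 0.65 (Mcm7, SE 0.27) to 1.19 (Mcm6, SE 0.64) for untreated over exosomes, and 0.39 (Mcm7, SE 0.29) to 1.57 (Mcm6, SE 0.79) for untreated over the mimic, given without a test for the same reason. Untreated over scrambled miRNA ran from -0.91 (Mcm5, SE 0.45) to -0.17 (Mcm4, SE 0.32) in the authors' deposited table, so all 6 members had their higher value with scrambled miRNA. In endothelial cells the authors' deposited tables called 0 of 6 for untreated over exosomes (folds 0.02 to 0.27, beside 3.77% of 17888 genes called), 0 of 6 over the mimic (0.03 to 0.63, beside 10.2% of 19841) and 0 of 6 over scrambled miRNA (-0.09 to -0.03, beside 0.757% of 20333). The endothelial folds of untreated over scrambled miRNA are strongly shrunken towards 0. Their median absolute fold over its error was 0.291 over all genes, where the p-values imply 0.880. For untreated over exosomes these values were 0.463 and 0.986, and over the mimic 0.564 and 1.05. In tubular cells they were 0.841 and 1.37 over scrambled miRNA, so fold sizes cannot be compared between the cell types. Untreated mice belong to an earlier series, so treatment and series cannot be told apart in these tables.

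The other genes of replication were followed in lists ordered by step, and the counts stand beside the 11.5% of all genes called higher and the 20.2% called in either direction in the same tubular table. In tubular cells after injury, 2 of 10 licensing genes were called higher over sham in the authors' deposited table, Cdt1 (log2 fold 1.81, SE 0.50) and the origin recognition subunit Orc6 (0.71, SE 0.31). Of 12 tested helicase activation genes 4 rose and 1 fell in the authors' deposited table. The GINS subunit Gins1 (1.96, SE 0.70) and the Cdc7 partner Dbf4 (1.98, SE 0.44) had the largest rises, and Mcm10, which despite its name is no ring subunit but helps to start the fork, fell (-1.22, SE 0.41). Of 24 replisome genes 5 rose in the authors' deposited table, led by Wdhd1 (2.50, SE 1.41), a link between helicase and polymerase alpha, and Rpa2 (1.98, SE 0.44), a subunit of the single-strand binding protein. Among 7 nucleotide supply genes, Rrm2, the S-phase subunit of ribonucleotide reductase, rose (1.46, SE 0.41) in the authors' deposited table.

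Of 22 tested E2F and G1/S genes, 4 rose and 3 fell in tubular cells in the authors' deposited table, beside the same 11.5% and 20.2%. Cdkn1a, an inhibitor of cyclin-dependent kinases, (4.75, SE 0.80) and the cyclin Ccne2 (2.43, SE 0.82) rose most, and the cyclin Ccnd2 (-2.78, SE 1.63) and the retinoblastoma relative Rbl2 (-1.43, SE 0.45) fell most. None of 12 tested mitosis genes was called in the authors' deposited table, nor either of Mcm8 and Mcm9, the helicase relatives that act in recombination. List medians were 0.35 for licensing, 0.37 for activation, 0.07 for the replisome, 0.08 for nucleotide supply, 0.07 for E2F and G1/S control and 0.00 for mitosis, beside the 1.05 of MCM2-7. Folds there are shrunken towards 0 (median absolute fold over its error 0.894, where the p-values imply 1.39). The 13 mitosis genes were also low, summing to 1.00 to 8.37 TPM in the tubular libraries with counts. Their median of 0.00 is thus no evidence that they did not change.

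In endothelial cells after injury, 3.3% of all genes were called higher and 4.41% in either direction. Beside these, 1 of 10 licensing genes (Orc1, 4.47, SE 1.59), 2 of 13 activation genes (Ticrr, 5.53, SE 1.58, and Gins2, 1.55, SE 0.73), 1 of 24 replisome genes (the flap nuclease Fen1, 0.81, SE 0.27) and 1 of 7 nucleotide supply genes (Rrm2, 1.15, SE 0.41) were called higher over sham in the authors' deposited table. Of 23 tested E2F and G1/S genes, Cdkn1a (3.62, SE 0.85) and Myc (3.05, SE 0.61), a transcription factor of growth, rose and Rbl2 (-0.75, SE 0.23) fell in the authors' deposited table. None of 13 mitosis genes was called in it. Among the endothelial libraries with counts, Ticrr was at 0 in exosome library 3 and mimic library 1, so its fold may rest on few reads.

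With treatment in tubular cells, the same lists are a description, since they share the libraries that chose the members. The median log2 fold of exosomes over scrambled miRNA was -0.15 for licensing, -0.50 for activation, -0.44 for the replisome, -0.39 for nucleotide supply, -0.46 for E2F and G1/S control and -1.12 for the 8 mitosis genes that could be fitted, beside -1.94 for MCM2-7. With the mimic the medians were -0.36, -0.80, -0.88, -0.84, -0.48 and -0.83 in the same order, beside -1.92 for MCM2-7. Licensing was split by gene, and the genes named here were chosen after their values were seen. The loaders Cdc6 and Cdt1 had -3.75 and -1.96 with exosomes and -4.78 and -1.93 with the mimic, whereas Orc2, Orc3, Orc4 and Orc5 lay between -0.14 and 0.59 in both. Cdc6 rested on 6, 1 and 1 reads with exosomes and 5 and 0 with the mimic, against 54, 20 and 32 with scrambled miRNA, so its folds are imprecise. Orc1 had 1, 0 and 0 reads with exosomes and 5 and 9 with the mimic, against 25, 4 and 22 with scrambled miRNA. Topbp1, a scaffold for helicase activation, had -0.81 with exosomes and -0.93 with the mimic. Mcm8 and Mcm9 had -0.71 and -0.09 with exosomes and -0.30 and -0.14 with the mimic.

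**Figure D5:**
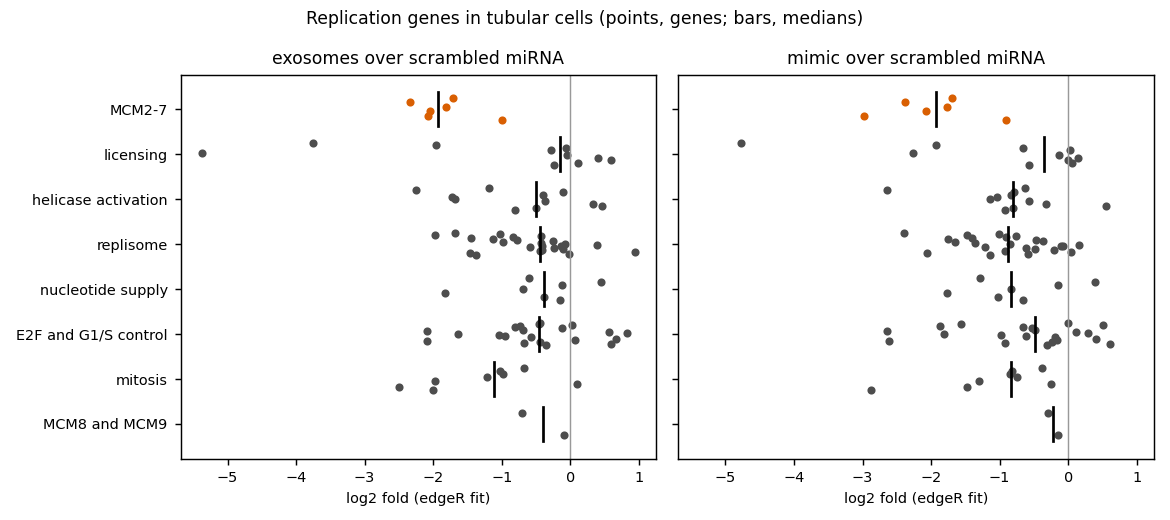
Log2 fold over scrambled miRNA in tubular cells (horizontal axis) for the genes of each list, exosomes left and mimic right. Points are genes and black bars list medians, and the MCM2-7 medians of -1.94 and -1.92 lie lower than those of the other lists.

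None of the replication lists held a called gene in the 3 endothelial comparisons or in tubular cells with the mimic over exosomes by edgeR's quasi-likelihood test. No other gene was called there either (0.0% of 16316 endothelial and of 14913 tubular genes), so this is no result about the lists. The endothelial list medians for exosomes over scrambled miRNA ran from -0.55 (mitosis) to -0.05 (licensing) and for the mimic from -1.21 (mitosis) to -0.15 (Mcm8 and Mcm9), beside -0.57 and -0.86 for MCM2-7.

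The cell types themselves were compared over all 3 treatments, 8 endothelial against 8 tubular libraries. All 8 endothelial markers were higher in endothelial libraries and all 8 proximal tubule markers in tubular libraries. Markers of thick ascending limb, podocytes and blood cells were also higher in the endothelial libraries. Over the 3 treatments, the endothelial markers summed to 256.0 to 492.8 TPM in endothelial libraries. Thick ascending limb markers summed to 3551 to 12235 TPM there, and the proximal tubule markers to 365.4 to 2722 TPM. The endothelial libraries thus carried tubule transcripts too. Their part in the members' endothelial values and in this comparison of cell types was not tested. The tubular side of this comparison holds the treated libraries whose low values led to the choice of genes, so the members are described here without a test. Their pooled log2 folds in the edgeR fit were 1.06 for Mcm3 (SE 0.23), 1.04 for Mcm4 (SE 0.16), 0.53 for Mcm6 (SE 0.26), 0.50 for Mcm2 (SE 0.21), 0.20 for Mcm5 (SE 0.28) and -0.25 for Mcm7 (SE 0.19).

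Taken within one treatment in the same fit, the folds were not alike, and this split was added after the pooled values were seen. With exosomes the log2 folds of endothelial over tubular cells ran from 0.13 (Mcm7, SE 0.30) to 1.62 (Mcm3, SE 0.38). With the mimic they ran from -0.44 (Mcm7, SE 0.36) to 1.63 (Mcm3, SE 0.45). With scrambled miRNA 5 of 6 were negative, from -0.61 (Mcm5, SE 0.45) to -0.08 (Mcm3, SE 0.35), and Mcm4 was at 0.29 (SE 0.25). The pooled values of Mcm3 and Mcm4 thus average folds of over 1 in both treated groups with smaller ones in the scrambled-miRNA groups.

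Between the cell types 66.2% of 17143 genes were called, 36.3% higher and 29.9% lower in endothelial cells, and the lists are counted beside these shares over the same libraries. Of the other replication genes, 1 of 10 licensing genes was higher in endothelial cells (Mcmbp, which binds and unloads MCM rings, 0.34, SE 0.08) and 3 were lower, led by Orc4 (-0.60, SE 0.12) and Orc3 (-0.57, SE 0.10). Of 13 activation genes 4 were higher, led by Cdc7 (1.60, SE 0.63) and Donson (1.29, SE 0.23), which helps assemble the active helicase, and 2 were lower, Mcm10 (-2.51, SE 0.28) and Gins4 (-0.31, SE 0.11). Of 24 replisome genes 8 were higher, led by the fork protection factor Timeless (1.52, SE 0.24) and the polymerase delta subunit Pold1 (1.41, SE 0.23), and 5 were lower, led by Rpa3 (-0.95, SE 0.16) and the primase subunit Prim2 (-0.86, SE 0.20). Of 7 nucleotide supply genes 3 were higher, led by Rrm2 (1.77, SE 0.23) and Dck (0.78, SE 0.19), and 3 were lower, the thymidine kinase Tk1 (-1.80, SE 0.32) among them. Of 24 E2F and G1/S genes 6 were higher, led by E2f7 (4.04, SE 0.71) and Ccnd2 (3.60, SE 0.24), and 5 lower, led by the kinase inhibitor Cdkn2c (-1.47, SE 0.17) and Skp2 (-0.85, SE 0.33). Of 13 mitosis genes 3 were higher, led by the proliferation marker Mki67 (1.42, SE 0.52) and Foxm1 (1.11, SE 0.35). All of these passed edgeR's quasi-likelihood test. E2f7 was at 0 in every tubular exosome library, so the size of its fold is imprecise.

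Across the 16 libraries the members varied together within groups. After the group mean of log2 CPM was taken from each library, Pearson's r between pairs of members ran from 0.63 (Mcm2 and Mcm7) to 0.93 (Mcm5 and Mcm6). Each member's r with the mean of the other 5 lay between 0.80 (Mcm2) and 0.95 (Mcm5). The 5 genes of 10501 with at least 100 reads on average that followed the members' mean most closely were Topbp1 (r = 0.92), Dnmt1 (0.84), Gps1 (0.83), Sirpa (0.83) and Fen1 (0.81). For Gps1 r was 0.92 within endothelial libraries and 0.63 within tubular libraries. These values describe 16 libraries of 6 groups, which differ in depth.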

How the data were processed

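RNA of endothelial and proximal tubular cells was sequenced. Transcript-level estimated counts and TPM were deposited by the authors for 16 libraries, made with Salmon 0.13.1 per the submitters' processing notes, which also name DESeq2 and the build GRCm38. In 12 tables the authors deposited log2 fold changes with errors, p-values and adjusted p-values, and a mean normalized count, a signal per gene per the file headers that was not used for any result. Fold changes there are shrunken to differing degrees.

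Estimated counts were summed per gene (136202 transcripts, 53392 genes), rounded, filtered with filterByExpr (minimum count 10, minimum total 15) and fitted within each cell type, or over both for endothelial against tubular, with edgeR 4.0.16 (TMM, quasi-likelihood F test, limma 3.58.1, R 4.3.3). P-values were adjusted by Benjamini-Hochberg over all genes and called under 0.05, and intervals are 95% intervals. Log2 CPM used a prior count of 2. Library depth was 8273783 to 25326882 reads. Alternatives were DESeq2 1.42.0 and its size factors, no filter, 2-group fits, a length offset, a replicate block and leaving out each library.

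The members and gene lists were chosen with earlier results of these data known. All 6 members are named, and from each other list up to the 2 largest changes in each direction among called genes, except that some are not reported here. Genes most like the members had the highest Pearson r with the members' mean log2 CPM after centring on group means, among genes with a mean count of at least 100. Per the labels, cells came from 3 mice a group, while the design text gives 2 for the mimic, whose groups hold 2 libraries. Whether a library number shared by both cell types marks 1 mouse is not given in the sources used here.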

Additional observations from a re-analysis of the deposited data

How the results depend on the processing

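In tubular cells over scrambled miRNA, all 90 values of the 6 members over the settings run were negative, for exosomes and for the mimic alike. These settings fit the same libraries again, in the comparisons that led to the choice of genes. The shared sign is thus a description and no separate support. With no filter on low counts, the number of genes called was 896 for endothelial exosomes over scrambled miRNA, 2038 for the mimic over scrambled miRNA, 661 for the mimic over exosomes and 396 for tubular mimic over exosomes, with 5 members called for the endothelial mimic. DESeq2 called 349, 1254, 5 and 166 genes in the same order, with 1 member called for the endothelial mimic. Fits of only the 2 groups called 1494 genes for the endothelial mimic over scrambled miRNA and 284 for tubular mimic over exosomes. Replicate numbers showed no clear pairing of the samples. Between same-numbered libraries r was -0.01 to 0.24 in endothelial and -0.07 to 0.23 in tubular cells. It was best with the own number in 7 and 4 of 14 comparisons of a library with another group. Centring on the means of groups of 2 or 3 libraries ties these r to each other, so they cannot decide whether the numbers pair samples. Library numbers found in both cell types gave r of -0.11 to 0.09. With the replicate block 661 genes were called for the endothelial mimic over scrambled miRNA. Tubular mimic over exosomes then turned to -0.059 for Mcm2, while the members called stayed as they were.

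Signs turned under the length offset for the endothelial mimic over exosomes (Mcm2 0.20, Mcm3 0.42), the endothelial mimic over scrambled miRNA (Mcm2 0.092) and tubular mimic over exosomes (Mcm3 0.062, Mcm4 -0.82, Mcm5 0.10), and for Mcm5 in tubular mimic over exosomes with no filter (0.019) and with only the 2 groups (0.0031). Leaving out 1 library moved the genes called over 0 to 55 (endothelial exosomes, highest without exosome library 2), 0 to 1321 (endothelial mimic over scrambled miRNA, with 1321, 185 and 366 without exosome library 1, 2 or 3) and 0 to 63 (tubular mimic over exosomes, highest without scrambled-miRNA library 3). The folds spanned -0.61 to 0.034 (endothelial exosomes, Mcm7), -0.41 to 0.26 (endothelial mimic over exosomes, Mcm3), -0.011 to 0.34 (between cell types, Mcm5) and, for tubular mimic over exosomes, -0.35 to 0.33 (Mcm2), -0.33 to 0.25 (Mcm3), -0.19 to 0.30 (Mcm4), -0.20 to 0.23 (Mcm5) and -0.046 to 0.28 (Mcm7). Between cell types, a contrast added after seeing the data turned signs within scrambled miRNA (Mcm2 -0.19, Mcm3 -0.079, Mcm5 -0.61, Mcm6 -0.32, median of the 6 -0.25) and within exosomes (Mcm7 0.13). The cause was not tested. With 2 or 3 libraries a group and 20.0 to 587.1 reads a member, small differences were not detectable, and the authors' tables allow no alternatives.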
